A study of Mus musculus with 9 samples.

Results

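The collagen chain genes of the mouse were followed while the upper lip and the primary palate fuse, in RNA-seq libraries of lambdoidal junction tissue, the region where the facial prominences meet. A gene was taken as a collagen chain if its deposited row was protein-coding and its symbol had the form Col, a type number, a and a chain number. This rule took 44 of the 54532 genes of the table and did not use any expression value. The tissue came from C57BL/6J embryos, for which the labels give no mutation or treatment, at embryonic day (E) 10.5, E11.5 and E12.5. Each stage was measured in 3 libraries, and each library was made from a pool of embryos, so the spread between libraries is a spread between pools and between library preparations. Markers of mesenchyme, surface epithelium, vessels and blood were all detected.

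Collagens are trimers of chains whose helical part repeats the triplet Gly-X-Y, with glycine as the residue small enough for the centre of the helix. Fibrillar collagens (types I, II, III, V, XI, XXIV and XXVII) form the cables of connective tissue, cartilage and bone matrix. Type IV forms the sheet of the basement membrane, FACIT chains (fibril-associated collagens with interrupted helices) decorate fibrils, short-chain collagens form hexagonal networks, type VI forms beaded filaments around cells, and transmembrane collagens stay anchored in the plasma membrane. The 44 genes were grouped in this way into 11 fibrillar, 6 type IV, 9 FACIT, 3 short-chain network, 6 type VI and 4 transmembrane chains and 5 others, namely the anchoring fibril chain Col7a1, the multiplexins Col15a1 and Col18a1, and Col26a1 and Col28a1.

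The repeat is visible in the genes themselves. In the longest coding transcript of GENCODE vM21 (GRCm38), 9 of the 11 fibrillar chains held an uninterrupted run of 337 to 344 Gly-X-Y triplets, while Col24a1 and Col27a1 reached 216 and 217. No type IV chain exceeded 66 triplets in a row and no transmembrane chain exceeded 56. Fibrillar genes had 21 to 33 coding exons of exactly 54 bases, which hold 6 triplets, against 1 to 3 in the type IV genes and 0 in Col8a1, Col8a2 and Col10a1, whose coding sequence lies in 2 exons. For 6 named chains of the fibrillar, FACIT and type VI classes, 1 in-frame exon of this length is shown. It is the first in which a glycine codon (GGN, in capitals) opens every triplet.
Col1a1 chr11:94939904-94939957 plus strand: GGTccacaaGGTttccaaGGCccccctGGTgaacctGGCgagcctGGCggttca
Col1a2 chr6:4515481-4515534 plus strand: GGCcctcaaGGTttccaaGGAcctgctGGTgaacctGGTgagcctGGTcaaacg
Col3a1 chr1:45325360-45325413 plus strand: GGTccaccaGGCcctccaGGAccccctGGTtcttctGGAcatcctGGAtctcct
Col5a2 chr1:45434892-45434945 minus strand: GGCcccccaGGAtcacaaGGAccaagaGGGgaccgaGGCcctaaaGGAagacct
Col9a2 chr4:121043696-121043749 plus strand: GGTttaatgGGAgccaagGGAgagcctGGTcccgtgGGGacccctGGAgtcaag
Col6a1 chr10:76719623-76719676 minus strand: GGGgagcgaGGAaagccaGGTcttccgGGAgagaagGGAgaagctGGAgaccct
Col1a1 and Col1a2 pair in type I collagen, Col9a2 belongs to type IX and Col6a1 to type VI. The exons were picked by this rule, so their glycine codons illustrate the repeat and are not a result.

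RefSeq promoter windows (GRCm38.p6) were matched for 35 of the 44 genes, with 38 windows in all. In the 250 bases before the start site, CCAAT or its reverse complement ATTGG was found in 13 of the 38 windows (34.2%) and in 33.8% of the 32851 windows of all genes. TATAAA or its reverse complement TTTATA was found in 5 collagen windows (13.2%) and in 12.4% of all windows. The last 120 bases before the RefSeq start are shown, with any match in capitals. They are given for 2 of the highest chains at E12.5 and for the type VI chain with the largest rise. For Col1a2 and Col6a1 this stretch lies inside the gene coordinates given below, which begin further upstream than the RefSeq start.
Col3a1 chr1:45311418-45311537 plus strand: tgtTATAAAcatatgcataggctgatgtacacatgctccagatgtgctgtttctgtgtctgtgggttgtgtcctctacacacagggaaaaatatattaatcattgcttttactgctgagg
Col1a2 chr6:4505498-4505617 plus strand: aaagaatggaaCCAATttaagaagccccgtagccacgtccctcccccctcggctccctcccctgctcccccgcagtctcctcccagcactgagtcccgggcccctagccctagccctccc
Col6a1 chr10:76726045-76726164 minus strand: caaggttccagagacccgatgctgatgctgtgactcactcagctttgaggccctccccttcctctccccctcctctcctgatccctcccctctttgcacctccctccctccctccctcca
Col3a1 held a TATAAA match and Col1a2 a CCAAT match in this stretch, and Col6a1 held neither. These matches describe the letters of the window and were not linked to any level below.

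Depth was 16581009 to 20836804 counts a library. Collagen chains took 0.396%, 0.393% and 0.187% of the counts of E10.5 replicates 1, 2 and 3, 0.502 to 0.563% at E11.5 and 0.676 to 0.870% at E12.5. E10.5 replicate 3 stood apart: 35 of the 39 collagen genes tested were lower in it than in both other E10.5 libraries, with a median difference of -0.97 on the log2 scale. Across genes, its difference from the mean of the other E10.5 libraries was related to GC content with a Spearman's rho of -0.546. For E10.5 replicates 1 and 2 rho was 0.438 and 0.469. Replicate 3 is part of the mean that these 2 were compared with, so their values are not independent of its own. Collagen transcripts had a median GC content of 55.1% against 49.7% over all genes tested. E12.5 replicate 3 was the lowest of its stage for 28 of the 39 genes. Estimates without E10.5 replicate 3 are given beside many of the log2 fold changes that compare with E10.5, and not beside every level, share or ratio. Facial mesenchyme markers, in CPM (counts scaled to a common library size), summed to 1013 CPM in E10.5 replicate 3, 1733 and 1744 CPM in the other E10.5 libraries, 2303 to 2456 CPM at E11.5 and 2245 to 2622 CPM at E12.5, so that E10.5 lay below the later stages. Msx1 and Pdgfra, both among these markers, were upregulated in E12.5 vs. E10.5, with or without that library. The part of the mesenchyme in the collagen levels that follow was not tested. Surface epithelium markers summed to 387 to 755 CPM over the 9 libraries, and endothelial markers to 108 CPM in E10.5 replicate 3 against 225 to 294 CPM in the other 8. Red blood cell markers summed to 2454 to 4984 CPM and Schwann cell and melanocyte markers to 14.2 to 66.3 CPM. In bulk tissue, a change in the number of cells of a type and a change of RNA per cell cannot be told apart.

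Collagen output was led by a few chains. Levels are compared between genes as CPM per kilobase of the deposited gene length. The sum over all 44 chains was 404 ± 132 CPM per kilobase in the E10.5 libraries, 609 ± 29.6 in those of E11.5 and 913 ± 112 in those of E12.5 (SD, n = 3 each). E10.5 replicates 1, 2 and 3 were at 481, 478 and 251, so replicate 3 lowered the E10.5 mean. At E10.5 the highest chains were Col2a1 of cartilage collagen (74.4 ± 22 CPM per kilobase), Col4a1 of the basement membrane (56.3 ± 22.5), the multiplexin Col18a1 (51.2 ± 5.15) and Col3a1 (44.8 ± 18.6). At E12.5 they were Col3a1 (166 ± 9.95 CPM per kilobase), Col1a2 (115 ± 12.7) and Col1a1 (115 ± 30.3), of which the last pair did not differ beyond their spread. This order depends on the length used. Per kilobase of the longest coding transcript, a scale chosen after the data were seen, the means at E12.5 were 293 for Col3a1, 268 for Col1a2, 172 for Col26a1 and 128 for Col1a1, and Col2a1 (135), Col3a1 (79.1) and Col1a2 (71.5) led at E10.5.

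**Figure D1:**
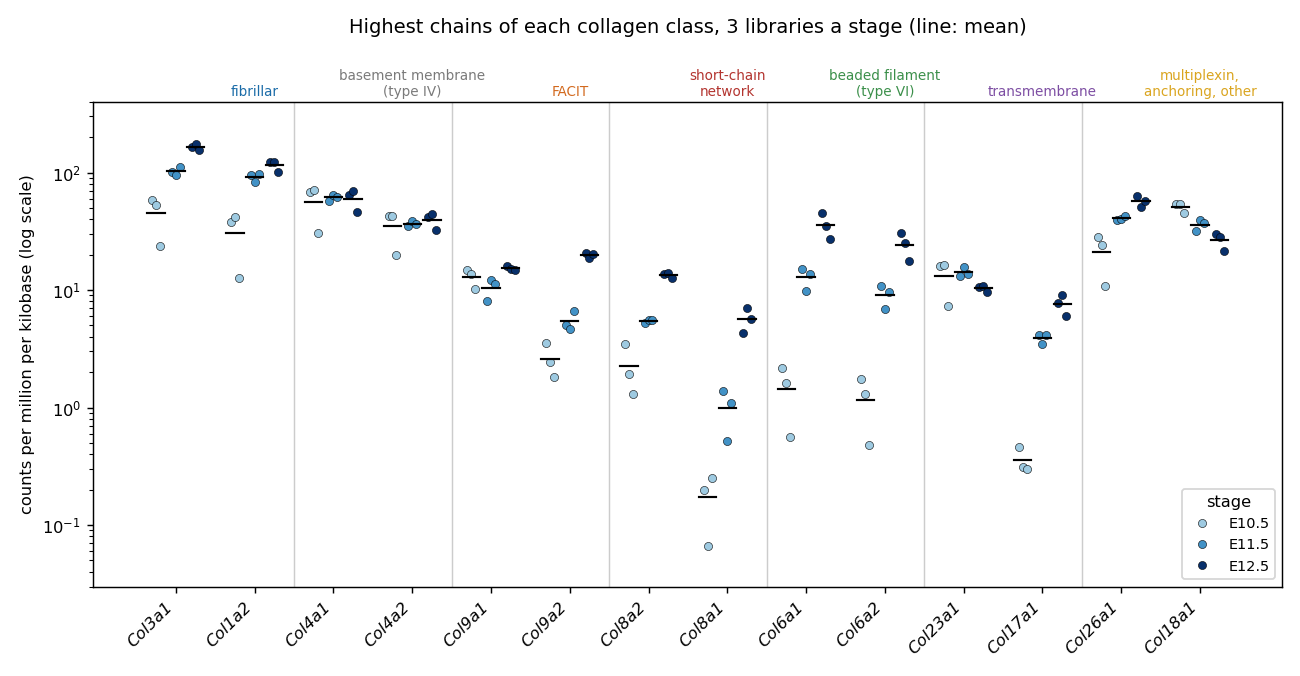
Level of the highest pair of chains of each collagen class, with 1 point a library (n = 3 a stage), on a log axis in CPM per kilobase, and a line at each mean. Col4a1 and Col4a2 stayed between 19.8 and 70.9 CPM per kilobase in all 9 libraries, while the type VI chains Col6a1 and Col6a2 were higher at each later stage with no overlap between stages.

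The share of basement membrane chains in collagen mRNA was lower at the later stages, and that of fibrillar and type VI chains higher. Fibrillar chains held 44.5 ± 1.52% at E10.5, 54 ± 1.85% a day later and 57.6 ± 0.639% at E12.5 of the summed CPM per kilobase (mean ± SD, n = 3). Type IV chains held 23.8 ± 1.14% at E10.5, 17.1 ± 1.33% a day later and 11.4 ± 0.943% at E12.5, and the multiplexin, anchoring and other chains 20.3 ± 2.41% at E10.5, 14.6 ± 0.936% a day later and 10.6 ± 0.887% at E12.5. Within a library a share does not depend on scaling between libraries, and the shares of these 3 groups did not overlap between E10.5 and E12.5. Type VI held 0.896 ± 0.301% at E10.5, 4.93 ± 0.991% a day later and 8.07 ± 1.26% at E12.5, and its libraries did not overlap between any pair of stages. FACIT chains held 5.54 ± 0.791% at E10.5, 4.44 ± 0.358% a day later and 7.69 ± 1.04% at E12.5, and short-chain network chains 0.607 ± 0.173% at E10.5, 1.06 ± 0.0376% a day later and 2.12 ± 0.236% at E12.5. The transmembrane chains held 4.3 ± 0.377% at E10.5, 3.88 ± 0.395% a day later and 2.46 ± 0.0666% at E12.5, and their E12.5 libraries lay below all others. Per kilobase of the longest coding transcript, type IV held 16.7 ± 0.564%, 11.4 ± 0.912% and 7.73 ± 0.761% at the successive stages, and the fibrillar, type IV, type VI, transmembrane and other shares again did not overlap between E10.5 and E12.5. Shares sum to 100% in each library, so a lower share of type IV does not by itself mean a lower level. The summed type IV level was 97.1 ± 35 at E10.5, 104 ± 5.1 a day later and 105 ± 20.6 at E12.5 in CPM per kilobase. Its E10.5 libraries were at 116, 119 and 56.7, the last being replicate 3. Without that library, the means at E11.5 and E12.5 were 0.888 and 0.895 times that at E10.5.

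**Figure D2:**
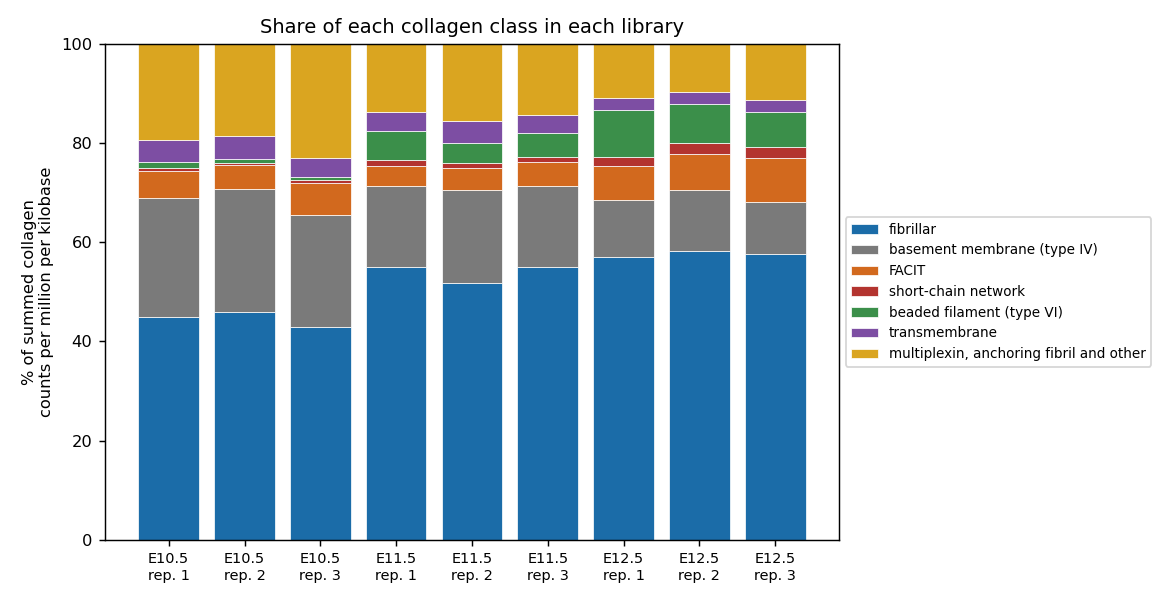
Share of each collagen class in each of the 9 libraries, in % of the summed CPM per kilobase of the 44 chains, as stacked bars that reach 100%. The type VI share was 0.591 to 1.19% at E10.5 and 6.95 to 9.43% at E12.5, and the type IV share 22.6 to 24.8% and 10.4 to 12.3%.

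Each pair of stages was tested gene by gene with edgeR's quasi-likelihood test, and a gene was called upregulated or downregulated where its p-value, adjusted by Benjamini and Hochberg, was at most 0.05 and its log2 fold change was 1 or more in size. Log2 fold changes are given ± their standard error (SE). For E11.5 vs. E10.5, 19 of the 39 chains tested were upregulated, against 3.46% of all genes tested. None was downregulated, by edgeR or by DESeq2, against 2.61% of all genes, and 3 had a lower estimate with an unadjusted p-value under 0.05. The log2 fold changes of the 19 ran from 1.06 to 3.56, and the median over the 39 was 0.95, against -0.03 over all genes. Without E10.5 replicate 3, 14 chains were upregulated, against 4.75% of all genes, and the median was 0.63. The count also fell to 10 without E10.5 replicate 2, and to 6, 11 and 7 without E11.5 replicates 1, 2 and 3. The calls of Col1a1, Col5a2, Col6a1, Col6a2, Col17a1 and Col25a1 held whichever of the 6 libraries was left out.

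In E12.5 vs. E11.5, 12 of 39 chains were upregulated, against 4.14% of all genes, and 3 were downregulated, against 0.962%. The downregulated chains were Col13a1, Col22a1 and Col24a1. The median over the 39 was 0.59, against 0.02 over all genes, and 11 of the 15 calls held in every fit that left out a library. In E12.5 vs. E10.5, 23 of 38 chains were upregulated, against 9.97% of all genes, and Col13a1 and Col22a1 were downregulated, against 5.08%. The median was 1.70, against -0.01 over all genes, and 21 of the 25 calls held in every fit that left out a library. Without E10.5 replicate 3, 23 of 39 chains were upregulated and 4 downregulated, against 10.4% and 6.23% of all genes. The other 5 chains, Col4a3, Col4a4, Col6a4, Col6a5 and Col10a1, and in E12.5 vs. E10.5 Col19a1, had too few counts to be tested.

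**Figure D3:**
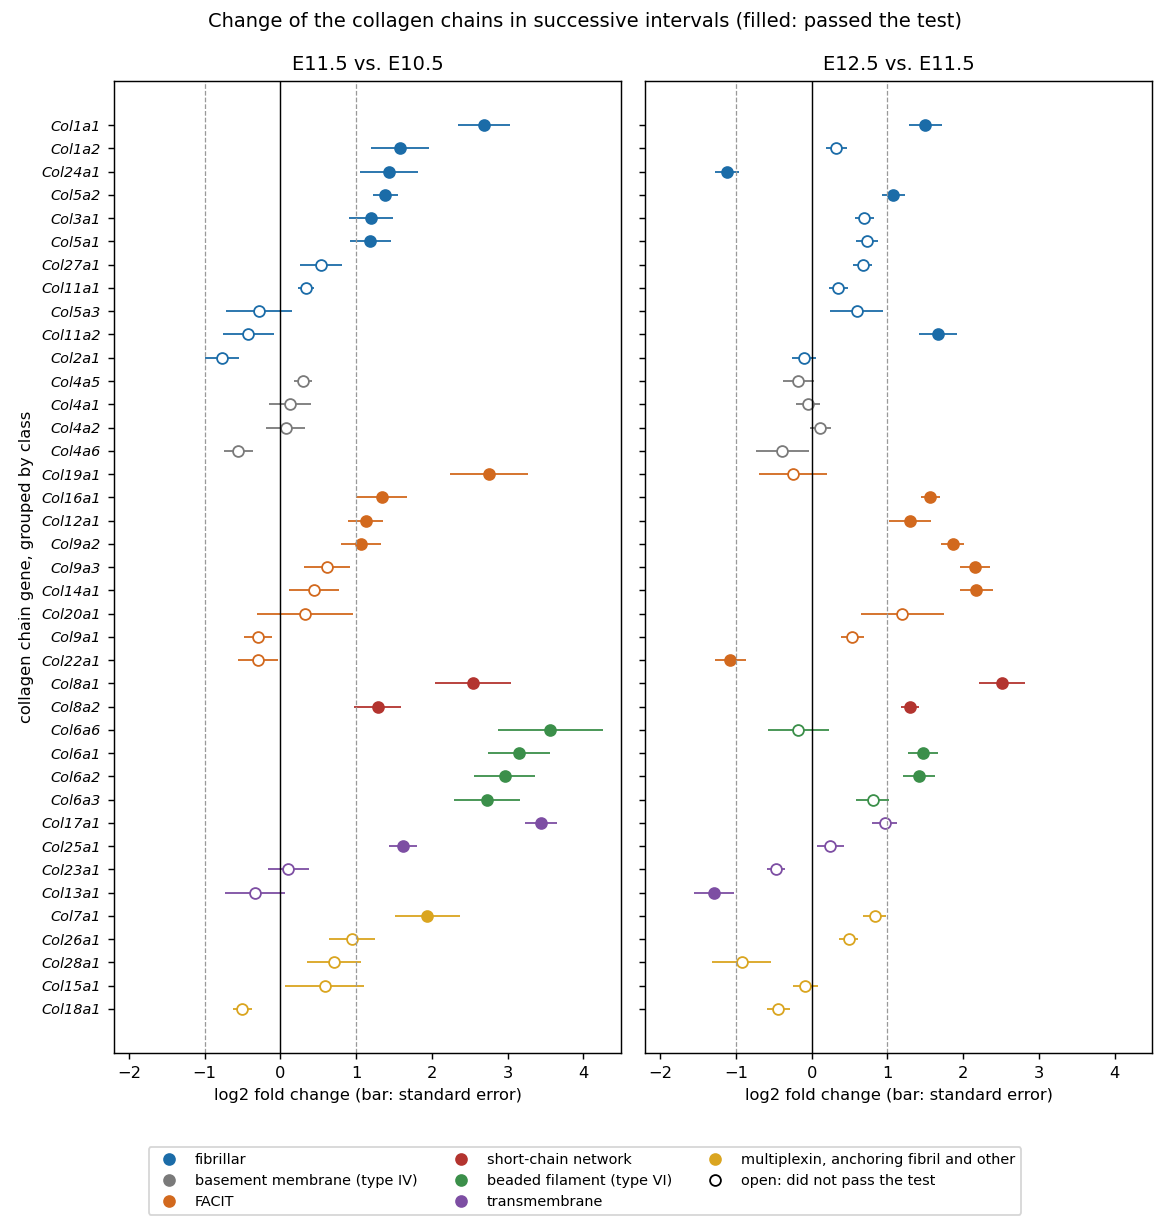
Log2 fold change of each of the 39 tested collagen chains in E11.5 vs. E10.5 (left) and E12.5 vs. E11.5 (right), with its standard error as a bar and the class as colour. Filled points passed the test, dashed lines mark -1 and 1, and in the left panel all 19 filled points lie above 1.

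Both intervals were compared in a fit on all 9 libraries, as the log2 fold change from E11.5 to E12.5 minus that from E10.5 to E11.5. Of the 39 chains, 2 passed at an adjusted p-value of at most 0.05, against 1.18% of all genes. Both had a lower change in the later interval, Col17a1 (difference -2.47 ± 0.34) and Col24a1 (-2.55 ± 0.55). Without E10.5 replicate 3 the differences were -2.41 and -2.27, and 6 chains passed. The share of all genes that passed in that fit is not given here, so this count was not compared with all genes. The call of Col17a1 was lost without E11.5 replicate 3, and that of Col24a1 held only without E10.5 replicate 1 or E10.5 replicate 3.

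Among the fibrillar chains, 6 of 11 were upregulated in the earlier interval, 3 in the later and 7 over both, against 3.46%, 4.14% and 9.97% of all genes. In the later interval 1 of the 11, Col24a1, was downregulated, against 0.962% of all genes. Col1a1, a chain of the type I trimer, rose the most of the fibrillar chains in E12.5 vs. E10.5. It lies on the plus strand of chromosome 11 at 94936224-94953042 (ENSMUSG00000001506). Its levels were 62.8, 38 and 23.8 CPM at E10.5, 305, 199 and 297 in the E11.5 libraries, and 899, 843 and 531 in the E12.5 libraries. All libraries of a stage lay above all libraries of the stage before. The log2 fold changes were 2.69 ± 0.34 in the earlier interval, 1.5 ± 0.22 in the later and 4.20 over the whole period, or 3.92 without E10.5 replicate 3. The Benjamini-Hochberg adjusted p over the whole period was 2.01e-05 by edgeR.

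Col1a2, the partner chain, lies on the plus strand of chromosome 6 at 4504814-4541544 (ENSMUSG00000029661). Its levels were 476, 516 and 156 CPM at E10.5, 1185, 1036 and 1202 in the E11.5 libraries, and 1513, 1538 and 1254 in the E12.5 libraries. E10.5 replicate 3 was far below the other E10.5 libraries, and the stages did not overlap. It was upregulated in E11.5 vs. E10.5 (log2 fold change 1.58 ± 0.38, and 1.21 without E10.5 replicate 3), while E12.5 vs. E11.5 gave 0.33 ± 0.14 with an adjusted p of 0.141 by edgeR. The call in E11.5 vs. E10.5 was lost without E10.5 replicate 1 or without any 1 of the 3 E11.5 libraries, with adjusted p-values from edgeR of up to 0.135.

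Col3a1, of the type III fibrils found beside type I in soft tissue, lies on the plus strand of chromosome 1 at 45311538-45349706 (ENSMUSG00000026043). Its levels were 569.6, 519 and 231 CPM at E10.5, 993, 936 and 1086 in the E11.5 libraries, and 1632, 1731 and 1536 in the E12.5 libraries. The stages did not overlap. It rose by 1.90 ± 0.30 on the log2 scale in E12.5 vs. E10.5, or 1.60 without E10.5 replicate 3. Its earlier log2 fold change of 1.2 became 0.89 without that library, which is under the threshold. That call was also lost without E10.5 replicate 2 or any 1 of the E11.5 libraries.

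Col5a2, whose chain nucleates type I fibrils together with Col5a1, lies on the minus strand of chromosome 1 at 45374321-45503282 (ENSMUSG00000026042). Its levels were 79.5, 75.1 and 58.8 CPM at E10.5, 204, 149 and 202 in the E11.5 libraries, and 352, 431 and 393 in the E12.5 libraries. The stages did not overlap, and E10.5 replicate 3 was again the lowest library. On the log2 scale the fold changes were 1.38 ± 0.17 and 1.08 ± 0.15 in the successive intervals and 2.47 over both. The first was 1.26 and the last 2.35 without that library. In E12.5 vs. E11.5 it fell under the fold threshold without replicate 2 of E11.5 (0.93) or of E12.5 (just under 1.00). Col5a1 had means of 70.1 ± 26.5, 159 ± 15.7, 265 ± 44.9 CPM (SD, n = 3) at the successive stages and was upregulated in E11.5 vs. E10.5 (1.19, or 0.91 without E10.5 replicate 3) and over both intervals (1.93, or 1.65 without that library).

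Col24a1, a fibrillar chain with a shorter run of triplets that is known from developing bone, lies on the plus strand of chromosome 3 at 145292472-145552011 (ENSMUSG00000028197). Its levels were 9.15, 4.41 and 2.6 CPM at E10.5, 14.4, 15.1 and 14.2 in the E11.5 libraries, and 6.82, 7.71 and 5.67 in the E12.5 libraries. All E11.5 libraries were above those of both other stages, and E10.5 and E12.5 overlapped. It rose by 1.44 ± 0.38 and then changed by -1.12 ± 0.16 on the log2 scale. The E12.5 vs. E10.5 estimate was 0.33 ± 0.39, and 0.00 without E10.5 replicate 3. In the fit on all 9 libraries the later fall had an adjusted p of 0.0632 by edgeR, and the call of the earlier rise was lost with upper quartile normalization (adjusted p 0.0512 by edgeR), without E10.5 replicate 2 and without any 1 of the E11.5 libraries.

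The other fibrillar chains were named after their values were seen. Col2a1, the main cartilage collagen, stood at 743, 858 and 463 CPM at E10.5, 339, 444 and 424 in the E11.5 libraries, and 399, 427 and 304 in the E12.5 libraries. The E10.5 libraries were the highest and the later stages overlapped. Its estimate in E12.5 vs. E10.5 was -0.86 ± 0.24, under the fold threshold, and -1.07 without E10.5 replicate 3, where it was called. Col11a1 had means of 75.4 ± 6.72, 95 ± 2.61, 122 ± 16.4 CPM at the successive stages, with an E12.5 vs. E10.5 estimate of 0.70 that was also under the threshold. Col11a2 had 2.7 ± 0.816, 2.01 ± 0.609, 6.42 ± 0.745 CPM and was upregulated in E12.5 vs. E11.5 (1.67 ± 0.25) and over both intervals (1.26, or 1.04 without E10.5 replicate 3). Col27a1 (24.5 ± 9.72, 35.4 ± 1.9, 56.6 ± 6.36 CPM) was called in E12.5 vs. E10.5 (1.22), but not without E10.5 replicate 3 (0.92), and Col5a3 stayed between 0.495 and 1.56 CPM with no call.

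Cartilage and neural markers differed between stages. The 7 cartilage markers summed to 43.4 to 80.8 CPM at E10.5, 22.8 to 29.2 CPM at E11.5 and 58.9 to 72.4 CPM at E12.5. Of the 4 tested in E12.5 vs. E10.5, Acan, Matn4 and Cnmd were upregulated and Hapln1 was downregulated, the last not without E10.5 replicate 3 (-0.94). In that comparison 9.97% of all genes were upregulated and 5.08% downregulated. Acan, the cartilage proteoglycan core protein, had means of 0.18, 0.738 and 10.5 CPM, Matn4 0, 0.513 and 17 CPM and Cnmd 0.0598, 0.56 and 16 CPM at the successive stages, and Hapln1 had 56.2, 23.3 and 22.8 CPM. Snorc, a cartilage marker, was at or under 3 counts in every library. The 6 neural markers summed to 270 to 336 CPM at E10.5, 189 to 212 CPM at E11.5 and 283 to 324 CPM at E12.5. Among them Sox1, a neural tube factor, fell from a mean of 48.8 CPM to 0.632 and 0.766 CPM, while Stmn2, a marker of differentiating neurons, rose, with means of 17.5, 37.5 and 106 CPM and a log2 fold change of 2.61 in E12.5 vs. E10.5. The progenitor factor Sox2 was also downregulated over both intervals (-1.14), but not without E10.5 replicate 3 (-0.98), and Tubb3, Elavl3 and Neurod1 were not called, the last called higher without that library (1.24). The part of these tissues in the levels of Col2a1 and the type IX and XI chains was not tested.

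The ratio of the type I chains differed between stages. The Col1a1 to Col1a2 ratio, in CPM per kilobase, was 0.25, 0.139 and 0.29 at E10.5, 0.488, 0.364 and 0.468 in the E11.5 libraries, and 1.12, 1.04 and 0.801 in the E12.5 libraries. Each stage lay above the one before without overlap, and E10.5 replicate 3 was not lower than the other E10.5 libraries. The change from E10.5 to E12.5 was 2.18 on the log2 scale. Per kilobase of the longest coding transcript the ratios were 0.108 ± 0.0371, 0.21 ± 0.0315 and 0.471 ± 0.0799 (SD, n = 3), because the deposited length of Col1a2 (12426 bases) is longer than its longest coding transcript, so the ratio at a stage depends on the length used while the step between stages does not. The Col3a1 to Col1a2 ratio was 1.56 ± 0.302 at E10.5, 1.12 ± 0.0479 a day later and 1.45 ± 0.095 at E12.5 and overlapped between E10.5 and E12.5.

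**Figure D4:**
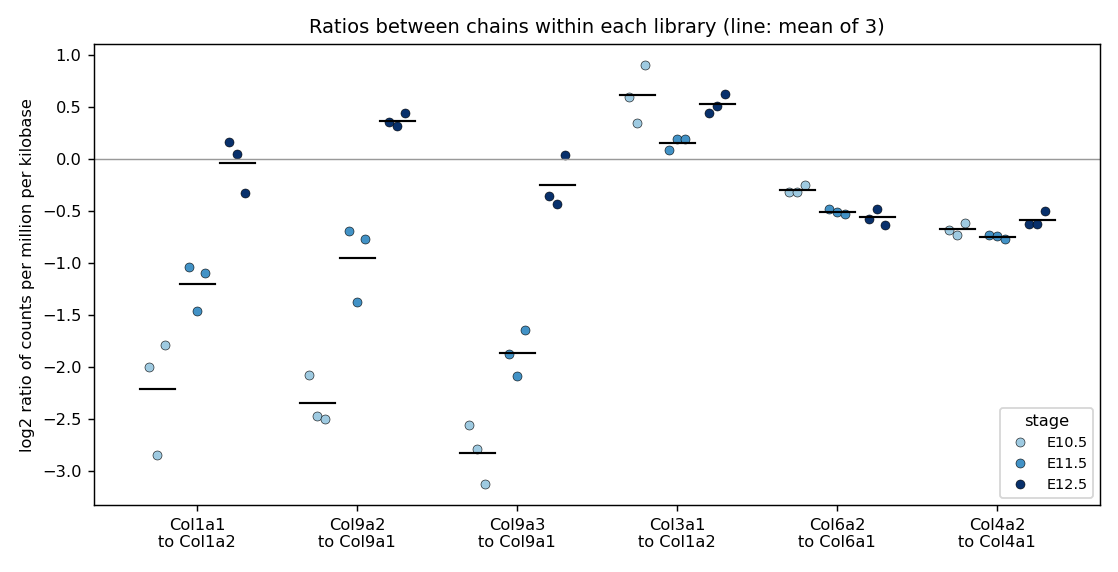
Log2 ratio of 2 chains' CPM per kilobase within each library, with 1 point a library (n = 3 a stage) and a line at each mean. The ratios of Col1a1 to Col1a2, Col9a2 to Col9a1 and Col9a3 to Col9a1 were higher at E12.5 than at E10.5 without overlap, by 2.18, 2.72 and 2.57 on the log2 scale, while Col4a2 to Col4a1 stayed between -0.762 and -0.501.

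Type IV chains, the scaffold of the basement membrane, had no call: 0 of 4 tested were called in any comparison by edgeR or DESeq2. In the earlier interval, in the later and over both, 2, 0 and 1 had an unadjusted p-value under 0.05 from edgeR. By edgeR 3.46%, 4.14% and 9.97% of all genes were upregulated there and 2.61%, 0.962% and 5.08% downregulated. With 4 genes, 0 calls lie near these shares. Col4a1 and Col4a2 lie head to head on chromosome 8, with starts 21 bases apart. Col4a1, on the minus strand of chromosome 8 at 11198423-11312826 (ENSMUSG00000031502), was at 506, 529 and 227 CPM at E10.5, 430.3, 478 and 464 in the E11.5 libraries, and 481, 515 and 342 in the E12.5 libraries. E10.5 replicate 3 was the lowest, E10.5 replicates 1 and 2 were above all E11.5 libraries, and the E12.5 libraries overlapped with both other stages. Col4a2, on the plus strand of chromosome 8 at 11312805-11449287 (ENSMUSG00000031503), was at 280.3, 283 and 131 CPM at E10.5, 229.96, 254 and 243 in the E11.5 libraries, and 278, 296 and 214 in the E12.5 libraries, with the same library lowest and the other E10.5 libraries again above those of E11.5. Their E11.5 vs. E10.5 estimates were 0.13 ± 0.28 and 0.07 ± 0.26, and -0.17 and -0.21 without E10.5 replicate 3, with no call. Their E12.5 vs. E10.5 estimates were 0.09 ± 0.30 and 0.19 ± 0.27, and -0.20 and -0.09 without that library. The Col4a2 to Col4a1 ratio had the narrowest range of those computed on the log2 scale, at 0.627 ± 0.0243 at E10.5, 0.597 ± 0.00662 a day later and 0.669 ± 0.0329 at E12.5.

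Col4a5 and Col4a6, another head-to-head pair on chromosome X with starts 1309 bases apart, had lower levels. Col4a5 stayed between 22.3 and 43.4 CPM in all libraries. Col4a6 had means of 10.6 ± 2.15, 7.18 ± 0.403, 5.48 ± 3.03 CPM at the successive stages (SD, n = 3) and an E12.5 vs. E10.5 estimate of -0.94 ± 0.39 with an adjusted p of 0.108 by edgeR. The ratio of Col4a6 to Col4a5 was 0.298 ± 0.0321 at E10.5, 0.166 ± 0.0118 a day later and 0.135 ± 0.0444 at E12.5, and its libraries did not overlap between E10.5 and the later stages. Col4a3 and Col4a4, the chains of the kidney basement membrane, were under 0.5 CPM in every library.

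Among FACIT chains, 4 of 9 were upregulated in the earlier interval and 5 of 9 in the later, where Col22a1 was downregulated. Over both intervals 6 of 8 were upregulated and 1 downregulated. Over all genes, 3.46%, 4.14% and 9.97% were upregulated in the earlier interval, in the later and over both. In the later and over both, 0.962% and 5.08% were downregulated. No FACIT chain passed the test of the difference between the intervals. Col9a2, a chain of type IX collagen, which coats type II fibrils, lies on the plus strand of chromosome 4 at 121039385-121055322 (ENSMUSG00000028626). Its levels were 11, 7.61 and 5.64 CPM at E10.5, 15.5, 14.4 and 20.6 in the E11.5 libraries, and 63.4, 58.4 and 62.3 in the E12.5 libraries. The E12.5 libraries stood at 58.4 CPM or more, and the highest at the other stages was 20.6 CPM. Its log2 fold changes were 1.06 ± 0.26 and 1.86 ± 0.15 in the successive intervals. The former was 0.86 without E10.5 replicate 3, and its call was lost without any 1 library other than E10.5 replicate 1.

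Col9a1, another chain of type IX, lies on the plus strand of chromosome 1 at 24177610-24252684 (ENSMUSG00000026147). It was at 75.6, 68.8 and 52 CPM at E10.5, 41, 61.3 and 57.5 in the E11.5 libraries, and 81, 76.8 and 75 in the E12.5 libraries. E10.5 and E12.5 overlapped, and the estimate between them was 0.25 ± 0.18. Col9a3, the last chain of the trimer, had means of 7.31 ± 2.65, 11.2 ± 2.73, 50.0 ± 7.8 CPM at the successive stages and was upregulated in E12.5 vs. E11.5 (2.16) and over both intervals (2.78, or 2.53 without E10.5 replicate 3). Its exons share 6.07% of their bases with Tcfl5 on the other strand, and whether counting used strand is not given in the sources used here. The Col9a2 to Col9a1 ratio was 0.238, 0.181 and 0.178 at E10.5, 0.619, 0.386 and 0.587 in the E11.5 libraries, and 1.28, 1.25 and 1.36 in the E12.5 libraries, and the stages did not overlap.

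Col16a1, a FACIT chain of skin and cartilage fibrils, lies on the plus strand of chromosome 4 at 130047840-130099283 (ENSMUSG00000040690). Its levels were 9.57, 8.94 and 3.41 CPM at E10.5, 19.4, 16.8 and 19.1 in the E11.5 libraries, and 54, 53.2 and 57.5 in the E12.5 libraries, with no overlap between stages. It rose by 1.57 ± 0.13 in E12.5 vs. E11.5 and by 2.92 in E12.5 vs. E10.5 on the log2 scale, or 2.58 without E10.5 replicate 3. Col12a1 and Col14a1, which bind the surface of type I fibrils in tendon and skin, had means of 27.2 ± 6.2, 59.4 ± 14.4, 146 ± 64.1 CPM and 3.29 ± 1.35, 4.48 ± 1.09, 20.3 ± 4.08 CPM, and E12.5 vs. E10.5 log2 fold changes of 2.43 and 2.63, or 2.26 and 2.53 without the same library. The later call of Col12a1 (1.30) did not hold without replicate 2 of E11.5 or of E12.5.

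Col22a1, a FACIT chain known from muscle and tendon junctions, lies on the minus strand of chromosome 15 at 71795795-72034227 (ENSMUSG00000079022). It was at 9.39, 8.82 and 4.71 CPM at E10.5, 6.03, 6.44 and 6.16 in the E11.5 libraries, and 3.49, 2.86 and 2.5 in the E12.5 libraries. The E12.5 libraries were below all others, and E10.5 replicate 3 was below the E11.5 libraries. The changes on the log2 scale were -1.08 ± 0.20 in the later interval and -1.36 ± 0.32 over both, or -1.61 without E10.5 replicate 3. Both calls were lost without E12.5 replicate 3. The 6 skeletal muscle markers summed to 2.53 to 5.13 CPM over all 9 libraries. Col19a1 was at or under 3 counts in every E10.5 library and at 0.625 to 1.00 CPM at E11.5, at least 4.72-fold higher, with 3 counts a library as the floor for E10.5, and at E12.5 it was at least 3.94-fold higher. Col20a1 was under 2.3 CPM in every library, and its call in E12.5 vs. E10.5 (1.52) was lost with DESeq2 and 4 of 6 times when a library was left out.

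The short-chain network collagens Col8a1 and Col8a2, known from the membranes under endothelia, were upregulated in all 3 comparisons, 2 of the 2 chains tested. The shares of all genes upregulated in the earlier interval, in the later and over both were 3.46%, 4.14% and 9.97%. Col8a2 lies on the plus strand of chromosome 4 at 126286793-126314330 (ENSMUSG00000056174). Its levels were 15.6, 8.71 and 5.88 CPM at E10.5, 23.7, 24.9 and 24.9 in the E11.5 libraries, and 61.9, 62.9 and 57 in the E12.5 libraries. No stages overlapped. The log2 fold changes were 1.28 ± 0.31 and 1.30 ± 0.12 in the successive intervals. Without E10.5 replicate 3 the former was 1.02, and its call was lost without E10.5 replicate 2 or any 1 of the E11.5 libraries. Col8a1 lies on the minus strand of chromosome 16 at 57624258-57754737 (ENSMUSG00000068196) and had the largest rise of the 44 chains in E12.5 vs. E10.5. It was at 1.55, 0.522 and 1.98 CPM at E10.5, 10.8, 4.09 and 8.59 in the E11.5 libraries, and 34, 55 and 44.8 in the E12.5 libraries. The stages did not overlap, and E10.5 replicate 3 was the highest of its stage. It rose by 5.05 ± 0.39 on the log2 scale, or 5.44 without E10.5 replicate 3. Its call in E11.5 vs. E10.5 (2.54) was lost without E11.5 replicate 1 or 3. The 6 endothelial markers summed to 108 to 277 CPM at E10.5, 271 to 285 CPM at E11.5 and 225 to 294 CPM at E12.5. Their part in these levels was not tested.

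All 4 type VI chains tested were upregulated in the earlier interval and over both, against 3.46% and 9.97% of all genes. Col6a1 and Col6a2 were also upregulated in the later interval, against 4.14% of all genes. The summed type VI level was 5.74, 4.33 and 1.49 CPM per kilobase at E10.5, 36.1, 23.3 and 31 in the E11.5 libraries, and 91.5, 76.9 and 54.5 in the E12.5 libraries. No stages overlapped, and the mean at E12.5 was 19.3 times that at E10.5, or 14.8 times without E10.5 replicate 3. Col6a1, an obligate chain of the type VI monomer, lies on the minus strand of chromosome 10 at 76708792-76726168 (ENSMUSG00000001119). Its levels were 9.45, 7.08 and 2.48 CPM at E10.5, 66.5, 42.7 and 60.1 in the E11.5 libraries, and 198, 154 and 119.7 in the E12.5 libraries. E10.5 replicate 3 was the lowest library, and every E12.5 library exceeded every E11.5 library. On the log2 scale the fold changes were 3.15 ± 0.41 and 1.47 ± 0.20 in the successive intervals and 4.64 over both, or 4.26 without E10.5 replicate 3.

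Col6a2, the neighbour of Col6a1 on the same strand with 85161 bases between them, lies on the minus strand of chromosome 10 at 76595762-76623630 (ENSMUSG00000020241). It was at 14.4, 10.8 and 3.96 CPM at E10.5, 90.5, 57.1 and 79.5 in the E11.5 libraries, and 252, 210.1 and 147 in the E12.5 libraries, in the same order of libraries within E10.5 and E12.5 as Col6a1. The whole change was 4.39 ± 0.41 on the log2 scale, with a Benjamini-Hochberg adjusted p of 3.43e-05 by edgeR, and 4.02 without E10.5 replicate 3. Col6a3, the long chain on chromosome 1, had means of 14.4 ± 8.4, 95 ± 19.8, 167 ± 47.4 CPM at the successive stages and was upregulated in E11.5 vs. E10.5 (2.73) and over both intervals (3.54, or 3.14 without E10.5 replicate 3), with E12.5 vs. E11.5 (0.81) under the fold threshold. The first of these calls was lost without E11.5 replicate 1 (adjusted p 0.0536 by edgeR). The Col6a3 to Col6a1 ratio was 0.815 ± 0.0483 at E10.5, 0.621 ± 0.0654 a day later and 0.388 ± 0.0703 at E12.5, and its stages did not overlap. Col6a6, an alternative long chain, was at or under 3 counts in every E10.5 library and at 0.716 to 1.67 CPM later, at least 6.98-fold higher at E11.5 and at least 6.14-fold higher at E12.5 than at E10.5, with 3 counts a library as the floor. Col6a4 and Col6a5 were under 0.7 CPM in every library.

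Of the 4 transmembrane collagens, Col17a1 and Col25a1 rose, Col13a1 fell and Col23a1 had no call. In E12.5 vs. E10.5, 9.97% of all genes were upregulated and 5.08% downregulated. Col17a1, the hemidesmosome collagen that ties basal keratinocytes to the basement membrane, lies on the minus strand of chromosome 19 at 47646344-47692094 (ENSMUSG00000025064). Its levels were 2.67, 1.8 and 1.73 CPM at E10.5, 23.9, 19.9 and 24 in the E11.5 libraries, and 45.1, 52.6 and 34.9 in the E12.5 libraries. The highest E10.5 library was at 2.67 CPM and the lowest E11.5 library at 19.9 CPM, and no stages overlapped. Its log2 fold changes were 3.45 ± 0.21 and 0.97 ± 0.17 in the successive intervals, and the latter was under the fold threshold. The first was 3.34 without E10.5 replicate 3, and the change over both was 4.42 with that library and 4.31 without it. The difference between these intervals had a Benjamini-Hochberg adjusted p of 0.00513 by edgeR. The 8 surface epithelium markers summed to 387 to 698 CPM at E10.5, 409 to 434 CPM at E11.5 and 662 to 755 CPM at E12.5, with the highest E10.5 value in replicate 3. In E12.5 vs. E10.5, 3 of the 8 (Krt5, Krt14 and Krt15) were upregulated, against 9.97% of all genes. Krt18 was downregulated (-1.02, but -0.73 and not called without E10.5 replicate 3), against 5.08% of all genes. Epcam, Cdh1, Krt8 and Trp63 were not called. Krt5, the keratin of basal cells, had means of 2.12, 34.5 and 151 CPM at the successive stages. The part of the epithelium in the level of Col17a1 was not tested.

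Col25a1, known from motor axon targeting, lies on the plus strand of chromosome 3 at 130131501-130599877 (ENSMUSG00000058897). It was at 15, 12.8 and 9.29 CPM at E10.5, 41.4, 34 and 38.6 in the E11.5 libraries, and 47.1, 55.1 and 33.1 in the E12.5 libraries. The E10.5 libraries were below all others, while E11.5 and E12.5 overlapped. It rose by 1.62 ± 0.19 on the log2 scale in E11.5 vs. E10.5, or 1.45 without E10.5 replicate 3, and the E12.5 vs. E11.5 estimate was 0.24 ± 0.18. Col13a1, the collagen of neuromuscular junctions and focal contacts, lies on the minus strand of chromosome 10 at 61838236-61979108 (ENSMUSG00000058806). Its levels were 17.4, 18.8 and 6.5 CPM at E10.5, 7.69, 15.3 and 10.7 in the E11.5 libraries, and 5.92, 3.77 and 4.17 in the E12.5 libraries. The E12.5 libraries were the lowest, and those of E10.5 and E11.5 overlapped. The changes on the log2 scale were -1.29 ± 0.27 in the later interval and -1.61 ± 0.37 over both, the latter -1.95 without E10.5 replicate 3. The call in the later interval did not hold without E11.5 replicate 2, nor that over both without E12.5 replicate 2 or 3. Col23a1, the highest transmembrane chain per kilobase, lies on the plus strand of chromosome 11 at 51289920-51583918 (ENSMUSG00000063564) and was at 92, 94.6 and 41.8 CPM at E10.5, 76.2, 90.6 and 78.3 in the E11.5 libraries, and 60.9, 61.6 and 55.1 in the E12.5 libraries. Its lowest library was E10.5 replicate 3, and the E12.5 vs. E10.5 estimate was -0.35 ± 0.27, or -0.64 without that library.

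Among the other 5 chains, Col7a1, the anchoring fibril of skin, lies on the plus strand of chromosome 9 at 108953586-108984875 (ENSMUSG00000025650). It was at 5.53, 4.53 and 1.24 CPM at E10.5, 16, 12.4 and 15 in the E11.5 libraries, and 29.6, 24.1 and 23.7 in the E12.5 libraries. No stages overlapped, and it was upregulated in E11.5 vs. E10.5 (1.94 ± 0.43, or 1.53 without E10.5 replicate 3) and over both intervals (2.78 ± 0.41, or 2.37 without that library). The former call was lost without E10.5 replicate 2 or any 1 of the E11.5 libraries. Col26a1, a chain known from testis and ovary, lies on the minus strand of chromosome 5 at 136741759-136883209 (ENSMUSG00000004415) and was at 232, 198 and 88.5 CPM at E10.5, 321, 326 and 349 in the E11.5 libraries, and 519.9, 418 and 467 in the E12.5 libraries. The stages did not overlap, and it rose by 1.45 ± 0.30 in E12.5 vs. E10.5 (1.14 without E10.5 replicate 3).

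Col18a1, the multiplexin whose end fragment is endostatin, lies on the minus strand of chromosome 10 at 77052178-77166548 (ENSMUSG00000001435). It was at 382, 378 and 317 CPM at E10.5, 221, 275 and 261 in the E11.5 libraries, and 210.3, 200.03 and 149.6 in the E12.5 libraries. The E10.5 libraries were above all others, replicate 3 included, and the E11.5 libraries were above those of E12.5. The E12.5 vs. E10.5 estimate was -0.94 ± 0.19, just under the fold threshold, and -1.01 without E10.5 replicate 3, where it was called. Col15a1, the other multiplexin, was at 10.3 CPM in E10.5 replicate 3 and at 50.6 to 80.1 CPM in the other 8 libraries, so that its E12.5 vs. E10.5 estimate of 0.51 became 0.04 without that library. Col28a1 stayed between 0.417 and 1.44 CPM with no call.

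Leaving out E10.5 replicate 3 lowered the E11.5 vs. E10.5 estimate of most chains and ended 5 of the 19 calls, namely those of Col3a1, Col5a1, Col9a2, Col12a1 and Col16a1, each by the fold threshold and not by the adjusted p. With a correction for GC content in every library 20 chains were upregulated. With that correction and without E10.5 replicate 3, a setting chosen after the data were seen, 17 were. The shares of all genes called under these settings are not given here, so neither count was compared with all genes.

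**Figure D5:**
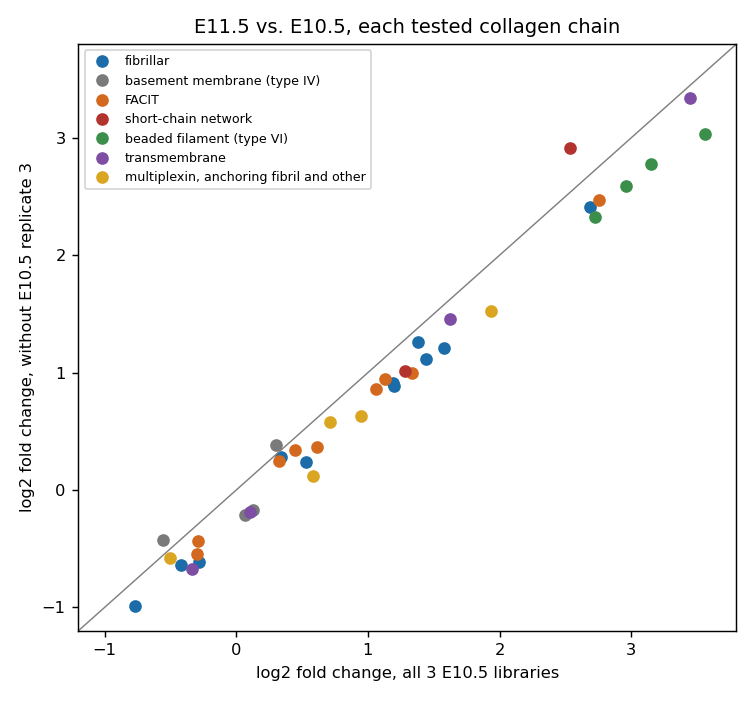
Log2 fold change in E11.5 vs. E10.5 of each of the 39 tested collagen chains with all 3 E10.5 libraries (horizontal axis) and without E10.5 replicate 3 (vertical axis), with the class as colour and a line where both are equal. Most points lie below the line (the median fell from 0.95 to 0.63), and Col8a1 lies above it at 2.92 against 2.54.

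Genes that build, export, cut and cross-link collagen were listed apart from the chains, together with collagen receptors and transcription factors of collagen genes. Of 54 tested, 7 (13.0%) were upregulated in the earlier interval, 6 (11.1%) in the later and 18 (33.3%) over both, against 3.46%, 4.14% and 9.97% of all genes. Foxc2 was downregulated over both intervals, 1.85% of the 54 against 5.08% of all genes. In the fit without E10.5 replicate 3, chosen for these genes after the data were seen, 16 were upregulated and 2 (Foxc1 and Foxc2) downregulated over both intervals, against 10.4% and 6.23%. Of 19 genes for hydroxylation, glycosylation and folding, 5 (26.3%) were upregulated over the whole period, against 9.97% of all genes, and 4 without E10.5 replicate 3. P4ha3, a prolyl hydroxylase subunit, was at 1.84, 1.45 and 1.49 CPM at E10.5, 30.1, 18.5 and 35.5 in the E11.5 libraries, and 66, 62.3 and 42 in the E12.5 libraries. It rose by 5.16 on the log2 scale, or 5.12 without E10.5 replicate 3, and its stages did not overlap. P4ha1, with means of 70.7, 69.5 and 76.9 CPM at the successive stages, had an estimate of 0.13, or 0.21 without that library. Crtap (1.13) and P3h1 (1.06), partners in prolyl 3-hydroxylation, were also upregulated, though not without E10.5 replicate 3 (0.97 and 0.92). The collagen chaperone Serpinh1, named outside the rule, had means of 762, 875 and 1179 CPM.

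Of 6 secretion genes, Creb3l1 (2.18), Sec24d (1.21) and Creb3l2 (1.07) were upregulated in E12.5 vs. E10.5 on the log2 scale, 50.0% against 9.97% of all genes. Of 7 propeptide cleavage genes tested, Tll1 (2.86) and Adamts2 (2.62), both procollagen proteinases, were upregulated (28.6%). Of 5 cross-linking genes, 3 were upregulated (60.0%): Lox, the lysyl oxidase, was at 12.7, 8.19 and 5.57 CPM at E10.5, 31.7, 26.4 and 33.2 in the E11.5 libraries, and 60.6, 74.8 and 62 in the E12.5 libraries, and rose by 2.91, while Loxl1 and Loxl2 rose by 1.49 and 1.17. The stages of Lox did not overlap. These calls of the secretion, cleavage and cross-linking genes all held without E10.5 replicate 3.

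Of 9 collagen receptors tested, Gp6 (1.55, under 2 CPM on average at every stage) and Itga2 (1.26) were upregulated in E12.5 vs. E10.5, 22.2% of the 9 against 9.97% of all genes, and Itga2 was not called without E10.5 replicate 3 (0.88). Ddr1 and Ddr2, the discoidin domain receptors, were not called. Of 8 transcription factors known to act on collagen genes, Runx2 (4.44, 59.8 and 99.3 CPM at the successive stages), Sp7 (1.67, 7.23 and 28.7 CPM), both of the osteoblast lineage, and the tendon factor Scx (4.79, 8.3 and 25.5 CPM) were upregulated in E12.5 vs. E10.5, by 4.49, 4.10 and 2.42 on the log2 scale (37.5% of the 8). Their changes were 4.06, 3.89 and 2.07 without E10.5 replicate 3. Sox9, the cartilage factor, had means of 114, 104 and 130.3 CPM and an estimate of 0.20. Of the 7 osteoblast markers, 1 of 5 tested (Alpl) was upregulated and 1 (Ibsp) downregulated in E12.5 vs. E10.5, against 9.97% and 5.08% of all genes. The sum of the 7 was 51.3 to 78.1 CPM at E10.5, 117 to 145 CPM at E11.5 and 108 to 149 CPM at E12.5. Bglap and Dmp1, markers of mature bone cells, had means under 0.3 CPM at every stage.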

How the data were processed

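Messenger RNA of 9 pooled-embryo libraries was sequenced by the authors. Per the submitters' processing notes reads were aligned to mm10 with HISAT2 2.0.5. The deposited table gives each gene's raw read count per library, and these counts were used (16581009 to 20836804 a library). The deposited FPKM columns, and the authors' log2 fold changes and p-values for pairs of stages, were not used. How strand and multiply mapped reads were handled is not given in the sources used here. Of the 44 chains, 13 share exon bases with another gene.

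Stages were grouped by the labels. Genes were filtered with filterByExpr (minimum count 10), scaled by TMM and tested for each pair of stages over all genes with edgeR 4.0.16 in R 4.3.3 (glmQLFit, glmQLFTest) and Benjamini-Hochberg adjustment. The difference between intervals used all 9 libraries. DESeq2 1.42.0, other scalings, filters, a GC correction, a replicate block and fits without each library were alternatives. The fits were tested on simulated data. A level at or under 3 counts was read as a floor, which covers counting error only. Labels do not name separate litters, so p-values measure the spread between these libraries.

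Members and lists were chosen with earlier results of these data known. Every-library values are given for the highest pair of chains per kilobase and the largest called pair of E12.5 vs. E10.5 changes in each class, for every downregulated chain and for every chain whose intervals differ, and up to 3 genes in each direction are named from other lists. Chains named beyond this were chosen after their values were seen.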

Additional observations from a re-analysis of the deposited data

Results flagged for a closer look

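In 2 collagen chains the change from E11.5 to E12.5 differed from the change from E10.5 to E11.5 in a test of that difference over all 9 libraries. For Col24a1 the later change minus the earlier was -2.55 on the log2 scale (adjusted p 0.0477 by edgeR's quasi-likelihood test): the gene was higher in 3 of 3 E11.5 libraries than in every library of the other stages. Leaving out each library in turn, the call held 2 of 9 times. For Col17a1 the difference was -2.47 (adjusted p 0.00513 by edgeR), with a higher level in 3 of 3 libraries at each later stage. It held 8 of 9 times and was lost without E11.5 replicate 3. Stages of 3 libraries are too small for the search for single outlying libraries.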

How the results depend on the processing

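No called value changed direction. Among values with no call, the summed level of type IV went from 0.10 to -0.17 on the log2 scale in E11.5 vs. E10.5 and from 0.11 to -0.16 in E12.5 vs. E10.5 without E10.5 replicate 3, and that of the multiplexin and other chains from 0.15 to -0.03 in the former. Against 19 called chains in E11.5 vs. E10.5, fits that left out 1 library gave 6 to 18. Without the fold threshold, E12.5 vs. E11.5 gave 24 calls against 15. The number of chains whose intervals differ was 2, and it was 1 with upper quartile normalization, 12 with no filter on low counts and 0 to 6 when 1 library was left out. The cause was not tested. Without division by gene length, the short-chain network change in E12.5 vs. E11.5 was 1.70 on the log2 scale. With a replicate block the calls were 18, 15 and 25 in the 3 comparisons and 3 for the intervals. Where no share of all genes stands beside a count from an alternative setting, that count was not compared with all genes. The labels do not say whether libraries with equal replicate numbers belong together. The correlations of their deviations were between -0.15 and 0.22. In E12.5 vs. E10.5 they were 0.178, 0.0701 and 0.221 for replicates 1, 2 and 3. The highest with another number were 0.153, -0.00618 and -0.139. In the other comparisons only replicate 2 of E11.5 vs. E10.5 exceeded the other numbers (0.0215 against 0.00474). A shared preparation was not tested. Depth limits the chains at or under 3 counts in every library of a stage, which were 5 at E10.5, then 3 and then 2 chains.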
